A study of Saccharomyces cerevisiae with 161 samples.

Results

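The regions described here are 209 stretches of the yeast genome where the peak of the cohesin subunit Rec8 was at least 25% wider than the peak of the axis protein Red1 at the same place. They were chosen by the measured widths alone. A Rec8 peak was paired with a Red1 peak where the Rec8 peak shared at least 1 bp with that Red1 peak only, and that Red1 peak met no other Rec8 peak. Of 1592 Rec8 peaks, 1147 formed such one-to-one pairs, and in 209 of these pairs (18.2%) the Rec8 peak was wider by that much. The 209 are 13.1% of all Rec8 peaks. Among the other pairs, 576 were of similar width and 362 had a Red1 peak at least 25% wider than the Rec8 peak. The remaining Rec8 peaks met no Red1 peak (140), met several (43), or met a single Red1 peak that reached over several Rec8 peaks (262).

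In meiotic prophase, chromosomes fold into loops anchored on a protein axis. Rec8 is the meiosis-specific kleisin subunit of the cohesin ring, which holds sister chromatids together and shapes the loop bases. Red1 is a filament-forming axis protein that associates with cohesin, and Hop1 is a HORMA-domain protein that binds Red1 and helps to bring the machinery that makes meiotic DNA double-strand breaks to the axis. A site where the Rec8 peak reaches well beyond the Red1 peak is thus a place where cohesin signal was called over sequence without a Red1 call.

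All the samples used were wild-type SK1 cells, a background that sporulates quickly and synchronously, collected 3 h after meiotic induction. The labels list 4 Red1, 4 Hop1 and 2 Rec8 chromatin immunoprecipitation (ChIP-seq) samples. For Rec8 the labels give an anti-HA antibody, whereas the study's methods name both an anti-HA and an anti-Rec8 antibody. In the Red1 and the Hop1 group, 1 sample each was from cells with Pk9-tagged Smc4 (SMC4-PK9), a condensin subunit, and the labels assign this pair a common input. Each protein has a single peak list, called on its combined samples, so no value below has a replicate error. No test was made, because the widths chose the members and a single list per protein leaves no spread between samples. The lists hold no read counts, so the depth is unknown, and Rec8 had fewer samples than Red1 or Hop1. Differences in antibody and depth between the Rec8 and Red1 libraries cannot be told apart from differences in where the proteins bound. Positions are SK1 coordinates. The genes at these positions were not analysed here.

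The Rec8 peaks of the 209 regions were about as wide as those of the similar pairs, and their Red1 peaks were narrow. The Rec8 peaks ranged from 277 to 7009 bp with a median of 1881 bp, close to the 1930 bp of the pairs of similar width. The median Rec8 width was smaller, 1288 bp, in the pairs with the wider Red1 peak, and 1588 bp over all Rec8 peaks. Their Red1 peaks ranged from 200 to 3233 bp with a median of 996 bp, against 1958 bp in the similar pairs and 2100 bp in the pairs with the wider Red1 peak. The median ratio of Rec8 to Red1 width was 1.67, with quartiles of 1.40 and 2.25. A ratio of 2 or more was found in 74 regions and a ratio of 5 or more in 13. The median difference in width was 714 bp, with quartiles of 444 and 1165 bp. These values were fixed in part by the choice of the regions and are a description only.

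**Figure D1:**
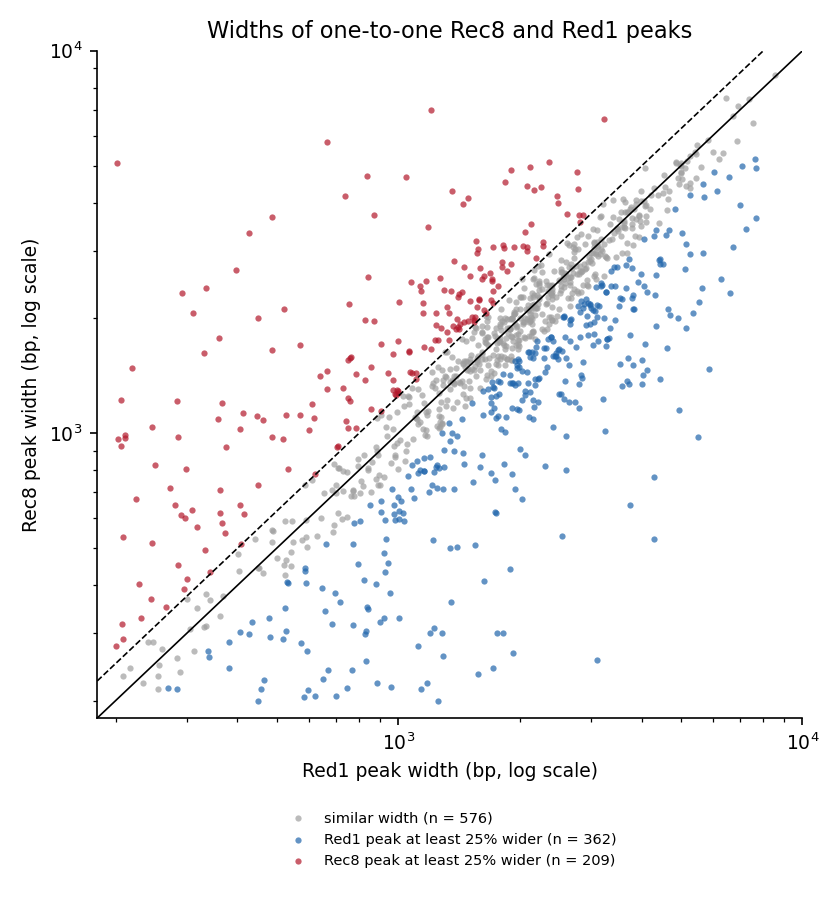
Width of the Rec8 peak (bp, log axis) against the width of the Red1 peak (bp, log axis) in the 1147 one-to-one pairs, 1 point per pair; the solid line marks equal widths and the dashed line a Rec8 peak 25% wider than the Red1 peak. The 209 regions with the wider Rec8 peak lie on or above the dashed line, and they spread furthest from it where the Red1 peak is under 1000 bp.

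How often the Rec8 peak was at least 25% wider varied with the Red1 width. Of the pairs with a Red1 peak under 500 bp, 57.3% did so (59 of 103). The share was 28.7% (48 of 167) from 500 to 1000 bp, 20.8% (80 of 385) from 1000 to 2000 bp and 4.47% (22 of 492) from 2000 bp upwards. A narrow Red1 peak can reach the ratio with few extra base pairs of Rec8, so this order follows in part from the rule. At the threshold itself the regions passed into the similar pairs without a gap. Just inside lay the Rec8 peaks on chromosome X from 642700 to 644759 (2060 bp against 1648 bp of Red1, a ratio exactly at the threshold), on XIV from 289355 to 289866 (ratio 1.2549) and on XVI from 390019 to 391404 (1.2554). Just outside lay those on XVI from 275444 to 277968 (ratio 1.2494), on IV from 1392752 to 1393484 (1.2466) and on XI from 371712 to 373341 (1.2462).

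The highest ratio was found on chromosome IV from 1459420 to 1464508, where a Rec8 peak of 5089 bp met a Red1 peak of only 202 bp (ratio 25.2). Its fold enrichment over input, the mean over the peak, was 1.49 for Rec8 and 1.32 for Red1, and the Hop1 peak there was 1070 bp wide. No Red1 summit was listed in it. Next came chromosome XVI from 559210 to 564990, with 5781 bp of Rec8, 665 bp of Red1 and 1007 bp of Hop1 (ratio 8.69). The ratios next in order lay on chromosome V. From 453673 to 455994, 2322 bp of Rec8 met 292 bp of Red1 and 544 bp of Hop1 (ratio 7.95). From 154584 to 157912, 3329 bp of Rec8 met 427 bp of Red1 and 794 bp of Hop1 (ratio 7.80). In all 4 of these regions the Hop1 peak was wider than the Red1 peak and, at 0.174 to 0.239 times its width, far narrower than the Rec8 peak.

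The widest Rec8 peak of the 209 lay on chromosome VIII from 87306 to 94314 (7009 bp). Its Red1 peak was 1207 bp and its Hop1 peak 1253 bp wide. The next one-to-one pair downstream, from 95658 to 99369, was also a member and had the lowest Hop1 width for its Rec8 width, 345 bp against 3712 bp (0.0929). On chromosome XVI, the peak from 574800 to 581446 (6647 bp, with 3233 bp of Red1 and 2300 bp of Hop1) was the next one-to-one pair after the one from 559210 named above, which at 5781 bp was the third widest. After that one, the next in width, on chromosome II from 244761 to 249890 (5130 bp, with 2359 bp of Red1), had a Hop1 peak of 4563 bp. There the Hop1 width was close to that of Rec8. The highest Hop1 width for its Rec8 width was at the narrowest region, on chromosome XII from 216998 to 217274, with 277 bp of Rec8, 200 bp of Red1 and 561 bp of Hop1 (2.03).

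In most regions the Red1 peak sat inside the Rec8 peak and off its centre. It lay wholly within the Rec8 peak in 158 of 209 (75.6%) and was shifted past 1 edge in the other 51, by a median of 43 bp. The Rec8 peak reached past the Red1 peak by a median of 265 bp on the left and 299 bp on the right, and the longer overhang was on the left in 95 of 209 (45.5%). Within a single region the sides were seldom even. In the 158 nested regions the longer overhang held a median of 80.7% of the extra sequence, and in 83 of them it held 80% or more. The same median was 74.9% in the 104 similar pairs with a nested Red1 peak. In total, 207766 of the 427730 bp of the Rec8 peaks (48.6%) lay outside the Red1 peak.

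**Figure D2:**
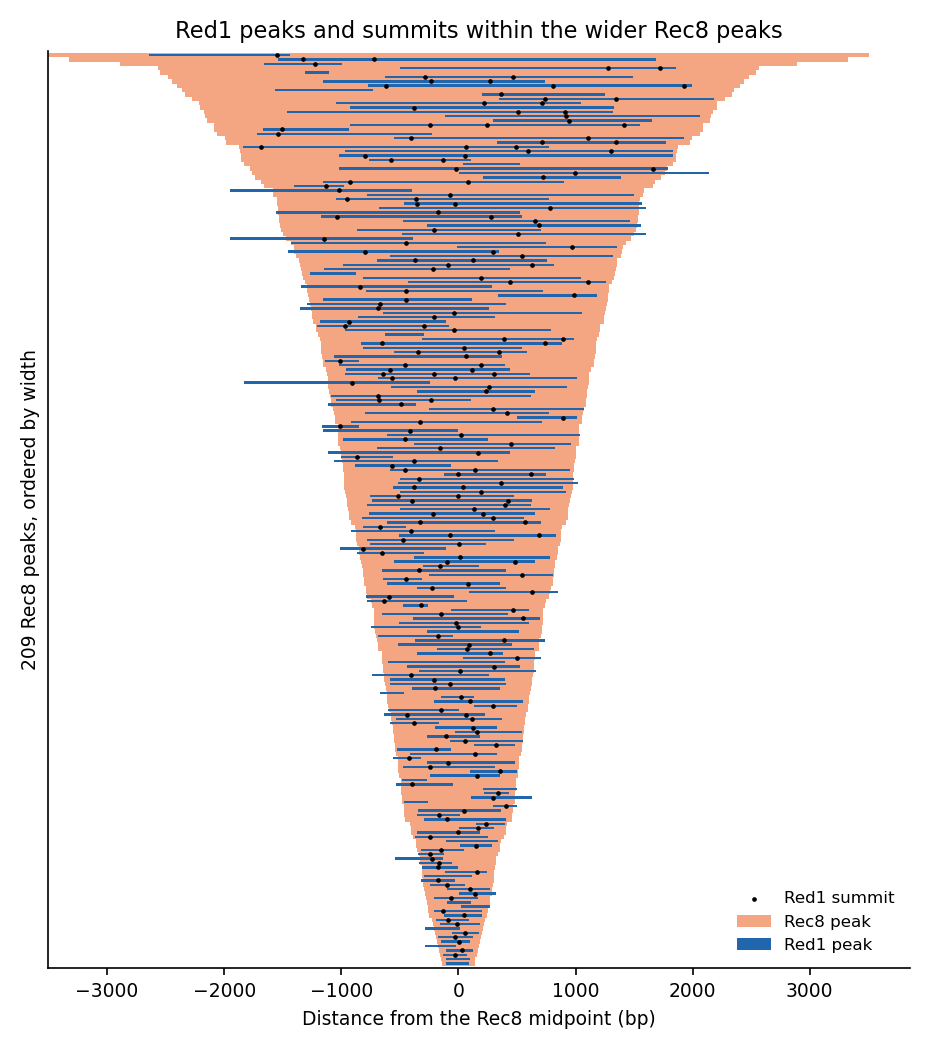
The 209 regions, 1 per row, ordered by Rec8 width and aligned on the Rec8 midpoint, with the distance from it in bp; orange bars are Rec8 peaks, blue bars are Red1 peaks and black dots are Red1 summits. The Red1 bars lie to either side of the midpoint, wholly inside the Rec8 bar in 158 rows, and the 237 summits follow them.

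At the median over the 209 regions, the fold enrichment of Red1 ranked lower in its list than that of Rec8 did. This was not so in every group of them, as given below. These values come from the same immunoprecipitations as the widths and are a description. The median fold enrichment of the Rec8 peaks was 1.64, against 1.79 in the similar pairs and 1.59 in the pairs with the wider Red1 peak. That of the Red1 peaks was 1.50, against 1.84 and 1.67. On a scale where 0 is the lowest and 100 the highest value of a list, the median rank in the 209 regions was 50.4 for Rec8, 41.1 for Red1 and, where a single Hop1 peak matched, 38.5 for Hop1. Rec8 outranked Red1 in 133 of 209 regions (63.6%), in 37.5% of the similar pairs and in 116 of the 362 pairs with the wider Red1 peak. The difference in rank varied widely among the regions, from −49.4 to 66.1 with a median of 6.52. The highest Rec8 fold enrichment of the members was found on chromosome II from 250719 to 252956, with 3.43 for Rec8 and 1.80 for Red1 at a width ratio of 1.41.

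Hop1 was not used to choose the regions and comes from other immunoprecipitations, although the choice of narrow Red1 and wide Rec8 peaks bears on any ratio to them. Of the 209 Rec8 peaks, 186 met exactly 1 Hop1 peak, 4 met 2 and 19 met none. The share with none was 9.09%, against 1.91% of the similar pairs and 3.59% of the pairs with the wider Red1 peak. The 19 regions without Hop1 were small, with a median Rec8 width of 824 bp, a median Red1 width of 267 bp and a median Red1 fold enrichment of 1.22.

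In 184 regions the Rec8, Red1 and Hop1 peaks all met one to one. The median Hop1 width was 1230 bp. It was 1.09 times the Red1 width (quartiles 0.948 and 1.52) and 0.668 times the Rec8 width (quartiles 0.443 and 0.871). The Rec8 peak was at least 25% wider than the Hop1 peak in 124 of 184 (67.4%), and this held for 20.0% of all 1048 trios of one-to-one peaks and for 12.5% of the similar ones. On a log scale the Hop1 width was nearer that of Red1 in 116 of 184 (63.0%). The same share was 65.1% over all trios and 61.8% in the similar ones.

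The Hop1 peaks were also often wider than the Red1 peaks. Hop1 was at least 25% wider than Red1 in 73 of 184 regions (39.7%), against 15.9% of all trios and 11.2% of the similar ones. The Hop1 width fell between the Red1 and Rec8 widths in 94 regions, under both in 64 and over both in 26. Where the Red1 peak was under 500 bp, the median Hop1/Red1 ratio was 1.58. It was 1.04 from 500 to 1000 bp, 1.03 from 1000 to 2000 bp and 1.01 from 2000 bp upwards. A Hop1 peak at least 25% wider than Red1 was found in 32 of 45 regions with a Red1 peak under 500 bp. It was found in 17 of 45 from 500 to 1000 bp and in 24 of 94 from 1000 bp upwards. It was thus most frequent at the narrowest Red1 peaks, and narrow Red1 peaks were part of the choice of regions. The median Hop1/Rec8 ratio was between 0.649 and 0.744 over these classes.

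By sequence, the Hop1 peaks covered 23.3% of the Rec8 sequence outside the Red1 peaks (48496 of 207766 bp) and 87.4% of that inside them. In the similar pairs these shares were 34.9% and 94.7%, and in the pairs with the wider Red1 peak 38.8% and 96.5%. Most of the extra Rec8 sequence of the 209 regions therefore had neither a Red1 nor a Hop1 call, as was also so in both other classes.

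**Figure D3:**
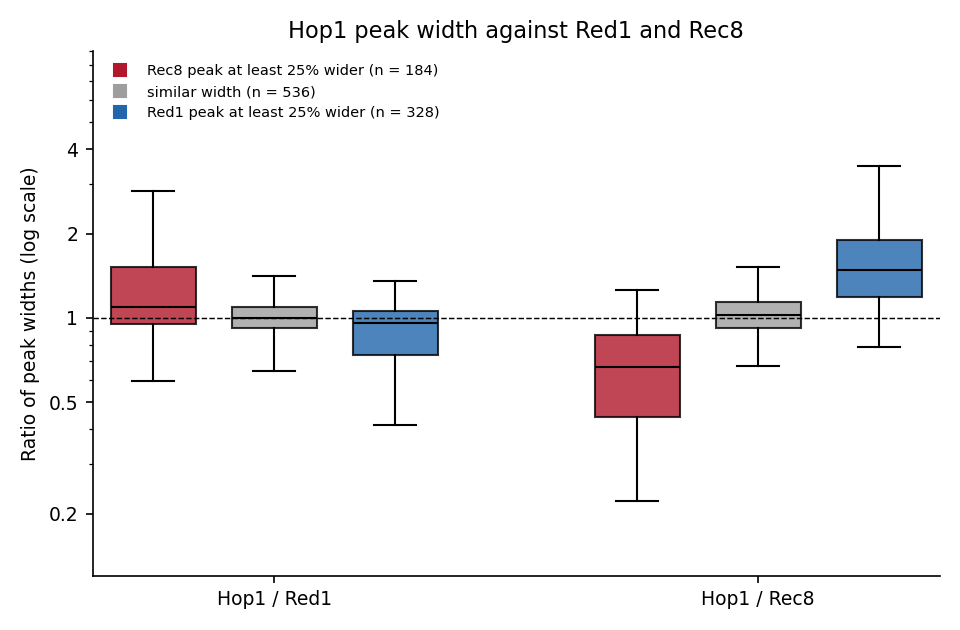
Width of the Hop1 peak divided by that of the Red1 or the Rec8 peak (log axis) in the trios of one-to-one peaks of each class; boxes give the quartiles, lines the median and whiskers the 5th and 95th percentiles. In the 184 regions with the wider Rec8 peak, the median Hop1/Red1 ratio is 1.09 and the median Hop1/Rec8 ratio 0.668, against 1.00 and 1.03 in the similar pairs.

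The deposited Red1 summits, single positions from a separate peak call with a score of at least 20.0, fell well inside the Rec8 peaks. The 209 Rec8 peaks held 237 of the 2385 summits (9.94%). A single summit was found in 147 regions, 2 in 39, 3 in 4 and none in 19. At least 2 summits were present in 20.6%, against 43.1% of the similar pairs and 22.4% of the pairs with the wider Red1 peak. All 237 summits of the members' Red1 peaks lay inside the paired Rec8 peak, while 1.63% of those of the similar pairs and 20.9% of those of the pairs with the wider Red1 peak lay outside. As a narrow Red1 peak inside a wide Rec8 peak leaves its summits little room to lie elsewhere, this follows in part from the choice of regions.

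The highest summit of a region had a median score of 188, against 606 in the similar pairs and 469 in the pairs with the wider Red1 peak. The 19 regions without a summit had Red1 peaks of 200 to 994 bp, with a median fold enrichment of 1.16 for Red1 and 1.32 for Rec8, and 8 of them had no Hop1 peak either.

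Within the Rec8 peak the summits lay a median of 342 bp from the midpoint, or 0.359 of the distance from midpoint to edge. They lay closer to the midpoint of the Red1 peak, by a median of 187 bp. In 5 equal steps from the midpoint outwards lay 28.3%, 25.3%, 23.6%, 16.5% and 6.33% of the summits. The outermost step held 16.9% of the summits of the similar pairs. A Red1 peak nested in a wider Rec8 peak keeps its summits from the Rec8 edges. The low outermost share of the members and this contrast therefore follow in part from the choice of regions. Left and right were even, with 123 of 237 on the left.

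Regions with a single summit gave a different order. Their summit lay at a median of 0.408 of the distance from midpoint to edge, against 0.290 in the similar pairs and 0.310 in the pairs with the wider Red1 peak. Single summits of the 209 regions were thus further off centre. The outermost step held 6.80% of them, against 3.82% in the similar pairs and 2.76% in the pairs with the wider Red1 peak. The lower share near an edge than in the similar pairs, seen over all summits, therefore did not hold for single summits. In nested regions with a summit, the highest one lay nearer the shorter overhang in 107 of 144 (74.3%), as the place of the Red1 peak itself requires in part. An example is the region on chromosome V from 453673, where the Red1 peak began 20 bp inside the Rec8 peak, 2010 bp of Rec8 lay beyond it and the only summit was at −0.87, close to the left edge.

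The 4 regions with 3 summits had Red1 peaks of 1583 to 2774 bp. On chromosome XII from 225131 to 229937, with 4807 bp of Rec8 and 2774 bp of Red1, the summits lay at −0.26, 0.34 and 0.80 of the distance from midpoint to edge, all within a Red1 peak that left 1627 bp of Rec8 free on the left. On chromosome IX from 346011 to 350184 they lay at −0.12, 0.12 and 0.68, with the strongest (score 572) nearest the middle. On chromosome VI from 279469 to 283219 they lay at −0.90, 0.03 and 0.26. In the strong Rec8 peak on chromosome II from 250719 they lay at −0.58, −0.19 and 0.27, the last with a score of 942. In each of the 4 the summits lay on both sides of the Rec8 midpoint.

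The members occurred on all 16 chromosomes. Their share of the one-to-one pairs ranged from 9.52% on chromosome IX (4 of 42) to 40.0% on chromosome VI (6 of 15). The largest numbers were 34 of 154 pairs on chromosome IV (22.1%) and 24 of 101 on chromosome XV (23.8%). The 3 shortest chromosomes, I, III and VI, held 10 members among 42 pairs (23.8%), and the other 13 had a share of 18.0% among 1105 pairs. Chromosome I had 1 member and III had 3, so the higher share rested on VI. Without VI it was 14.8% (4 of 27), and without the pairs within 20 kb of an end it was 12.5% (4 of 32), below the 17.4% of the other 13 chromosomes at that distance. Few Rec8 peaks of the short chromosomes entered a one-to-one pair at all, 35.9% against 74.9% on the others. Per Mb, they carried 12.1 members and the others 18.4.

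The members were more frequent near the ends of chromosomes. The ends were taken as the first and last listed position, since the SK1 lengths were not used here. Within 20 kb of an end, 22 of 61 pairs were members (36.1%). The share was 16.7% (15 of 90) from 20 to 50 kb, 15.2% (20 of 132) from 50 to 100 kb, 14.7% (42 of 285) from 100 to 200 kb and 19.0% (110 of 579) beyond. The pairs with the wider Red1 peak had the opposite order, with 14.8% of pairs within 20 kb and 28.7% to 37.8% further in. The 22 members lay at 16 of the 32 ends and on 11 chromosomes, with at most 4 at a single end. All 6 members of chromosome VI were among them, 2 of 2 pairs at the left end and 4 of 4 at the right. Without the 3 shortest chromosomes the share within 20 kb was 31.4% (16 of 51), against 17.4% further in.

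The outermost pair of a chromosome, counted after the pattern had been seen, was a member at 16 of 32 ends (50.0%), a similar pair at 13 and a pair with the wider Red1 peak at 3. Of these 16 members, 14 lay within 20 kb of an end and were thus already counted above. The median Rec8 width of the members near the ends was 1932 bp, against 1873 bp in the members 20 kb or more from an end, and the median Red1 width was 1022 bp, against 994 bp. The median Rec8 rank was 45.5 near the ends and 51.2 elsewhere. Without the 3 shortest chromosomes these ranks were 38.3 and 51.9, and the median Rec8 widths 2228 and 1873 bp. The median Red1 rank of those members was 41.9 near the ends, above their Rec8 rank, and 41.5 elsewhere, below it. The median Hop1/Rec8 ratio was 0.637 near the ends and 0.678 elsewhere. Reads were kept by the authors only where they matched a single location, so repeated sequence near the ends is not represented.

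**Figure D4:**
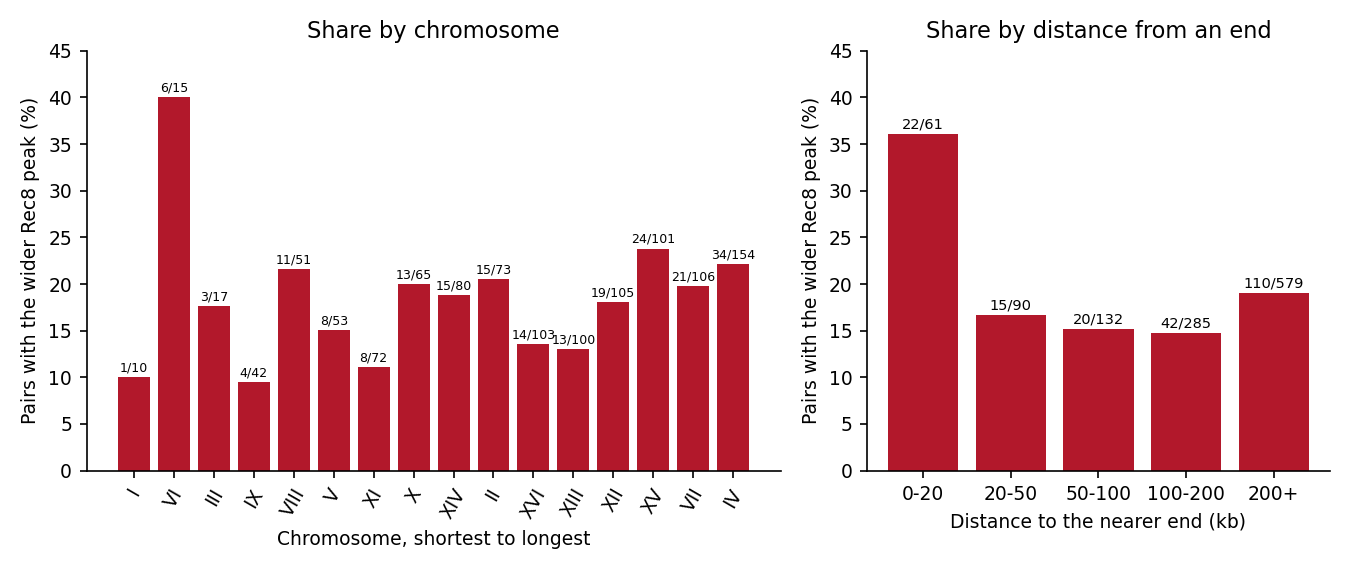
Left, share of the one-to-one pairs (%) that have the wider Rec8 peak on each chromosome, ordered from shortest to longest; right, the same share by distance from the nearer chromosome end (kb). Numbers over the bars are members over pairs, and the tallest bars are chromosome VI (6 of 15) and the first 20 kb (22 of 61).

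Around the members, the median coverage by Red1 and by Hop1 peaks was lower than around either other class, and that by Rec8 peaks lay between the other classes. Within 10 kb on either side, outside the pair itself, Red1 peaks covered a median of 13.3% of the sequence, against 17.3% around the similar pairs and 24.4% around the pairs with the wider Red1 peak. Hop1 peaks covered 12%, 17.5% and 25.0%. For Rec8 the 3 values were 16.7%, 15% and 18.0%. The stretch of 10 kb was not cut at chromosome ends, so positions beyond the last listed one counted as uncovered. This touches the members most, as 10.5% of them lay within 20 kb of an end. That share was 5.21% of the similar pairs and 2.49% of the pairs with the wider Red1 peak. From the members, the next other Red1 peak was a median of 3289 bp away, against 2840 and 2688 bp in the similar pairs and the pairs with the wider Red1 peak.

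Members tended to follow one another along the chromosomes. The next pair to the right of a member was a member in 72 of 201 cases (35.8%). After a similar pair this was so in 16.3%, and after a pair with the wider Red1 peak in 36 of 360. If each member were followed at its own chromosome's share of members, 19.5% would be reached. The share of members followed by a member was above the chromosome's own share of members on 13 of 16 chromosomes. Counting only cases where no other Rec8 peak lay in between, the next was a member in 47 of 148 (31.8%). The other classes also followed themselves, in 54.7% of the similar pairs, which are 50.2% of all, and in 42.2% of the pairs with the wider Red1 peak, which are 31.6% of all.

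In all, 113 members (54.1%) stood in runs of 2 or more and 96 stood alone. Of the similar pairs 79.3% stood in such runs, and of the pairs with the wider Red1 peak 66.0%. Both of these classes hold more pairs, and their longest runs held 11 and 9. The members formed 21 runs of 2, 14 of 3, 4 of 4, 1 of 5 and 1 of 8. Members in runs had a median Rec8/Red1 ratio of 1.95 and a median Hop1/Rec8 ratio of 0.597, against 1.57 and 0.744 for members alone. Their Rec8 rank exceeded their Red1 rank by a median of 12.3, while it was −0.256 in members that stood alone. The Hop1/Red1 ratios were alike, 1.09 and 1.08.

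**Figure D5:**
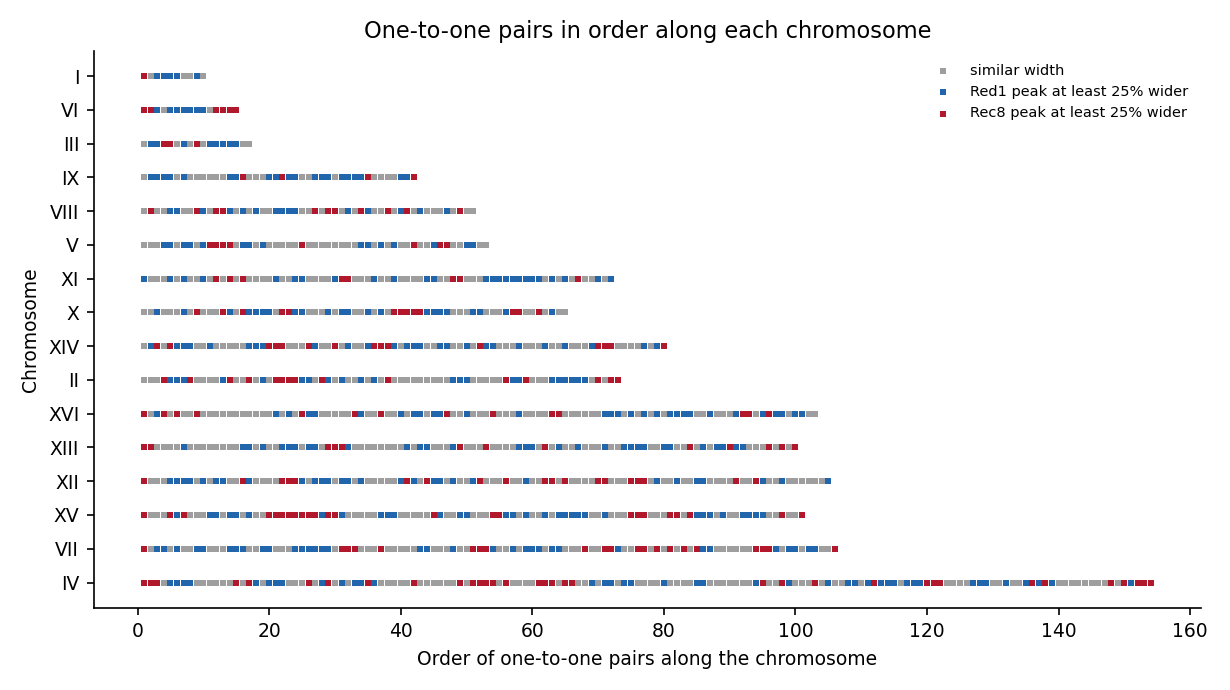
One-to-one pairs as squares in their order along each of the 16 chromosomes, shortest at the top; red squares have the wider Rec8 peak, grey ones similar widths and blue ones the wider Red1 peak. The horizontal axis counts pairs and not base pairs. The run of 8 red squares is on chromosome XV, and red squares stand at 16 of the 32 row ends.

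The longest run held 8 members on chromosome XV from 301593 to 397903 (96.3 kb). Its ratios were, in order, 1.31, 1.99, 4.04, 1.66, 4.29, 2.77, 1.32 and 1.96. Rec8 peaks of 1213 to 4412 bp thus stood beside Red1 peaks of 283 to 2255 bp, with 1 summit in each region. The summit scores ran from 37.2, at the region with the highest ratio, to 1973, at the region with the lowest. The run was sparse, as only 1 of its steps joined Rec8 peaks with no other between them. The first region, from 301593 to 304460, was strong in all 3 lists, with a fold enrichment of 3.28 for Rec8, 2.56 for Red1 and 2.50 for Hop1. The region from 340965 to 342177, was weak in all of them, with 1.48, 1.29 and 1.13. A run therefore joined strong and weak sites.

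The denser runs were shorter. On chromosome X, 5 members stood between 441754 and 470535 (28.8 kb, ratios 1.61 to 2.34), 3 of the steps without another Rec8 peak. On chromosome II, 4 members stood side by side from 244761 to 263408 (18.6 kb) with 8 summits, among them the regions from 244761 and from 250719 named above. On chromosome VI, 4 adjacent members from 269979 to 290006 (20.0 kb) formed the right end, with ratios from 1.39 to 7.17. Runs of 4 were also found on chromosome IV from 444441 to 482811 and on chromosome V from 134589 to 177929.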

How the data were processed

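Wild-type peak lists were analysed. Per the labels and the methods, the authors aligned ChIP-seq reads to SK1 with Bowtie, accepting only perfect single-site matches, lengthened them to 200 bp, discarded PCR duplicates and ran the broad mode of MACS2 2.1.1 on pooled samples against input. The deposited fold enrichment is the ChIP-to-input ratio averaged over the peak by the authors' peak caller. The deposited −log10 q-value describes the whole peak. The authors' summit score is of an unnamed type. Summits came from a separate call.

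Pairs were joined from 1 shared bp, and widths were compared at a difference of 25%, with Python 3.11.15, NumPy 2.4.6, SciPy 1.17.1 and Matplotlib 3.10.9. Pairing was tested on simulated data. Named regions were the 4 members with the highest ratio, the 4 widest, the 4 with most summits, the extremes of Hop1/Rec8 width, the 3 pairs on either side of the threshold and the longest run. The other runs were named after their values were seen. Members and lists were chosen with earlier results of these data known. Transcript levels, mutants and 3 samples without a clear group were not used here. Alternatives varied the ratio, overlap, q-value, width, summit score and distance from ends.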

Additional observations from a re-analysis of the deposited data

How the results depend on the processing

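For 10 results there were 73 alternative values, 65 planned and 8 added after seeing the data. Of the 73, 57 stayed within the 95% interval of the main value, set by counting error or order statistics. For the number of members, the limit was 1.5 times. These intervals treat the regions of a single list as independent, and the alternatives reuse the same peaks. They serve as a yardstick for the size of a change and are not a replicate error. With a ratio of 1.1, members were 25.8% of pairs, with a median ratio of 1.44, a next-pair share of 45.6% and a Hop1/Rec8 ratio of 0.759. With 1.50, there were 137 members, 11.9% of pairs, and these values were 2.05, 28.8% and 0.557. The number and share of members and their median ratio follow from the threshold directly. The next-pair share also depends on how many pairs are members, and the Hop1/Rec8 ratio on the Rec8 width that the threshold selects. How much of their change this makes up was not tested. With peaks of at least 500 bp, members were 16% of pairs and 98.2% held a summit. With −log10 q of at least 5, 95.3% did, and with a summit score of at least 100, 61.2%. Without the outer 20 kb, 2.14% of members were on the 3 shortest chromosomes, against 4.78%, and their share of pairs there turned from above that of the other 13 chromosomes (23.8% and 18.0%) to below it (12.5% and 17.4%). With Red1 peaks of at least 1000 bp, an added alternative, the Hop1/Red1 ratio was 1.02 and Hop1 was nearer Red1 in 70.2%. No paired analysis was possible because each list combines its replicates, and no replicate could be left out for the same reason. Depth is unknown, and its effect could not be examined.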
